A study of Mus musculus with 2 samples.

Results

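The genes described here are the mouse cytochrome P450 genes of families 1, 3 and 4, a set of heme enzymes of the endoplasmic reticulum that oxidise drugs, carcinogens, steroids and fatty acids. The families were picked with earlier results of these data known, and their members were then set by name. Every probe set of the deposited table that names exactly 1 gene was taken if its symbol begins with Cyp1, Cyp3 or Cyp4 and a subfamily letter. That gave 25 genes, each read by 1 probe set, among the 19938 genes named in this way. A further 5 probe sets name several genes with at least 1 of these families and are given separately.

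The samples were hepatocellular carcinoma tissue of wild-type and of HLF-deficient genotype, 1 each, after DEN (diethylnitrosamine, a carcinogen that the liver activates). HLF, hepatic leukemia factor, is a PAR bZIP transcription factor that binds DNA elements called D-boxes. There was 1 array per genotype, so each difference below is between 2 tumour samples, called tumours here. Each difference has no replicate check and no p-value, and the number of arrays is what limits the precision. The strain, sex, age and DEN dose of the mice, the cells in which Hlf was inactivated, and whether tissue was pooled are not given in the sources used here.

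Levels are given as RMA expression (log2), and each difference is the HLF-deficient value minus the wild-type value. A level was counted as expressed at or above a floor of 2.98, the 95th percentile of chemoreceptor probe sets, whose genes liver does not use. In all, 14575 genes reached the floor on at least 1 array and were compared with a set size rule, a log2 difference of 1 or more (2-fold) upwards or downwards. Hlf itself was 5.13 in the wild-type tumour and 3.79 in the HLF-deficient one, which is a difference of -1.34. Hepatocyte markers were high in both tumours: the 7 of 8 listed genes that could be read differed by between -0.15 for Alb and 0.12 for Serpinc1. In tissue such as this, fewer cells of a type and less RNA per cell cannot be told apart. As a guide to technical spread, a probe set's difference had an SD of 0.24, from 739 genes with 2 expressed probe sets; this holds no spread between mice.

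In liver, the 3 families answer to different sensors. Family 1 is induced through the aryl hydrocarbon receptor AhR, which is activated by planar aromatic compounds. Family 3 enzymes clear many drugs and steroids and are induced through the receptors PXR and CAR. Family 4 enzymes hydroxylate the far end of fatty acids and of lipid mediators such as leukotrienes, and several Cyp4a genes are targets of PPARalpha, the fatty acid receptor. Some Cyp3a and Cyp4a genes are also known to be sex-biased in mouse liver, under the control of the pattern of growth hormone secretion.

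Upstream sequences of 3 Cyp3a genes are shown first because these neighbours look alike before their start sites. All are from RefSeq, build GRCm38.p6, minus strand, read 5′ to 3′, and end before the first annotated transcribed base: Cyp3a16 at chr5:145469741-145469973, Cyp3a44 at chr5:145805892-145806120 and Cyp3a11 at chr5:145879883-145880104. Cyp3a44 and Cyp3a11 are printed only over the stretch that aligns with the printed bases of Cyp3a16. Capitals mark bases that differ from Cyp3a16, or are inserted relative to it, in a pairwise alignment; bases of Cyp3a16 that Cyp3a11 lacks are not marked.
Cyp3a16: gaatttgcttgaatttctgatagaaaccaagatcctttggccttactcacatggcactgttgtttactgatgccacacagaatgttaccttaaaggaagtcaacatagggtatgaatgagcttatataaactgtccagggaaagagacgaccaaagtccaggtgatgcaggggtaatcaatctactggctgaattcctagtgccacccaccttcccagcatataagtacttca
Cyp3a44: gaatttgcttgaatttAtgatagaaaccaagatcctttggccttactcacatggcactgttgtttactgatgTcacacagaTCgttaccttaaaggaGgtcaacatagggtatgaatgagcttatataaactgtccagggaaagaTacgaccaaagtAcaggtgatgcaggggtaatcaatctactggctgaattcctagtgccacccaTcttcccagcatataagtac
Cyp3a11: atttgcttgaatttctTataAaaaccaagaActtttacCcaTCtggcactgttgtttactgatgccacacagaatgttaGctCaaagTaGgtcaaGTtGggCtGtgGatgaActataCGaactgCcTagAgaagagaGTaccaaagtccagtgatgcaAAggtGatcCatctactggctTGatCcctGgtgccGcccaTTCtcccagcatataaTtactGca
Over the 250 bases before the start that RefSeq's table gives, Cyp3a44 was 92.9% identical to Cyp3a16 and Cyp3a11 was 76.6% identical to it. Cyp3a41a and Cyp3a41b were 99.6% identical to each other, and 94.4% and 94.8% to Cyp3a44. Cyp3a25 was 52.0% identical to Cyp3a16 and 95.6% to Cyp3a59. The transcripts were not compared; several deposited probe sets name more than 1 of these genes.

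Of the 25 genes, 18 were expressed on at least 1 array. As deposited, 0 of the 18 were higher by 2-fold in the HLF-deficient tumour, where 1.5% of all compared genes were, and 2 were lower by 2-fold, Cyp3a16 and Cyp4a10, where 0.364% of all compared genes were. Cyp4a10 stood at the boundary, and the 2-fold call of Cyp3a16 rests on a value under the floor. With a looser rule of 1.5-fold, 5 of the 18 were higher, against a background of 6.37%, and 3 were lower, against 3.11%. Positive and negative differences were equally frequent, 9 of each, beside 58.2% positive over all compared genes. The median was 0.05, beside 0.07 over all compared genes. Values past 1.5-fold in both directions also stood within a single gene cluster, that of the Cyp4a genes.

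**Figure D1:**
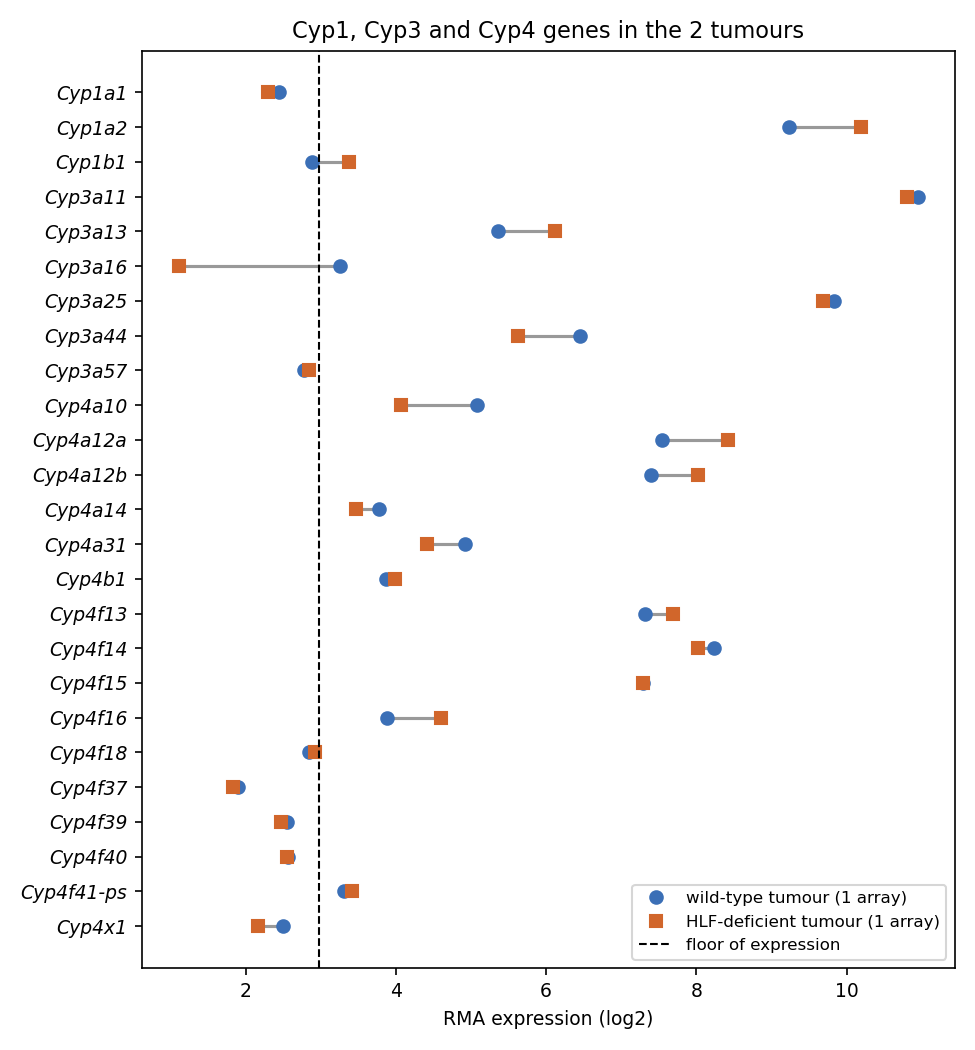
RMA expression (log2, horizontal axis) of the 25 Cyp1, Cyp3 and Cyp4 genes in the wild-type tumour (circles) and the HLF-deficient tumour (squares), 1 array each; the dashed line is the floor of 2.98. Cyp1a2 and Cyp4a12a lie further right in the HLF-deficient tumour and Cyp3a44 and Cyp4a10 further left, while 7 genes lie left of the floor on both arrays; levels of different genes come from different probes and are not to be ranked.

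Family 1 held the largest positive difference of the 18 compared members. Cyp1a2 (probe set 10593981), the constitutive liver enzyme that oxidises caffeine and aromatic amines, was 9.23 in the wild-type tumour and 10.2 in the HLF-deficient one, which is a difference of 0.96 or 1.95-fold. Cyp1a2 ranked 245th from the top among the 14575 compared genes and lay just under the 2-fold rule. When the arrays were centred on their medians it passed the rule at 1.09, and it was 0.88 after quantile and 0.87 after loess normalization. Its neighbour Cyp1a1, the AhR-inducible enzyme of polycyclic hydrocarbon metabolism, was under the floor on both arrays at 2.44 and 2.29. The 2 genes lie next to each other in RefSeq on chromosome 9, and the 10 compared genes around them had a median difference of 0.10. Beyond 2-fold were 0 of these 10, beside 1.5% of all compared genes higher and 0.364% lower.

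Cyp1b1, an AhR-inducible enzyme found mainly outside hepatocytes, was 2.88 in the wild-type tumour, under the floor, and 3.37 in the HLF-deficient tumour, just above it. Only a bound holds for it, at least 1.31-fold higher. Markers of non-parenchymal cells went both ways, beside 58.2% positive over all compared genes. Of the stellate and fibroblast markers 7 of 8 were positive with a median of 0.28, and of the endothelial markers 6 of 8 with a median of 0.66, with 6 or 7 of 8 in each list under the other scalings; Lyve1, of lymphatic and sinusoidal endothelium, was 2.31-fold higher. Of the macrophage markers 7 of 9 were positive with a median of 0.32, also 7 under each other scaling. Cd68, a lysosomal protein of macrophages, was 2.88-fold higher, while Clec4f at -0.37 and Cd5l at -0.15 were negative. The macrophage median was 0.45 after centring, 0.12 after quantile and 0.16 after loess normalization. In that order the median was 0.40, 0.21 and 0.23 for the stellate and fibroblast list and 0.78, 0.46 and 0.49 for the endothelial list. By contrast, 1 of 4 cholangiocyte, 2 of 4 T and NK cell, 0 of 1 B cell and 1 of 8 neutrophil markers were positive; the cholangiocyte and neutrophil counts were 2 under the other scalings. On a log2 scale the summed level of the stellate and fibroblast list was 9.27 and 9.51, and that of the endothelial list 9.15 and 9.77, in the wild-type and HLF-deficient tumours. Their part in the Cyp1b1 value was not tested.

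The short core of the AhR element, GCGTG, was searched on both strands in the 250 bases before the start, as letters only. It is present in 28.2% of 32851 RefSeq upstream windows, so a match is common. Of the 18 members with a window, 5 had it: Cyp1a1, Cyp1b1, Cyp4f14, Cyp4f16 and Cyp4f39. Cyp1a2 had none in this window. The 30 bases around each match are printed to show the core in its setting, with the core in capitals; they lie at chr9:57697547-57697576 (plus strand) and chr17:79715120-79715149 (minus strand) of RefSeq's GRCm38.p6. The Cyp1a1 window lies within the span that RefSeq gives the gene, which begins farther upstream.
Cyp1a1: tcagataaggagGCGTGgccaacagacaca
Cyp1b1: cgtcccgcccctCACGCcccaccccctaag
In Cyp1b1 the core is on the opposite strand and reads CACGC here. It begins 54 bases before the start in Cyp1a1 and 76 bases before it in Cyp1b1. 

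Genes of the AhR pathway other than the P450s were mixed. Of 7 listed, 5 were compared, with 1 higher and 0 lower by 2-fold, beside 1.5% and 0.364% of all compared genes. The list's median was 0.47, or 0.59 after centring, 0.28 after quantile and 0.30 after loess normalization. Tiparp, an AhR target that encodes a mono-ADP-ribosyltransferase and feeds back on the receptor, was 4.03 and 5.46, or 2.69-fold higher. Ahr itself was 6.57 and 7.08, a difference of 0.51, and its partner Arnt differed by 0.47. After centring, quantile and loess normalization Ahr differed by 0.64, 0.33 and 0.34, and Arnt by 0.59, 0.28 and 0.30. The other listed targets did not pass 1.5-fold as measured levels: Nqo1, a quinone reductase, differed by -0.25, near the technical SD, Aldh3a1 was 3.21 in the wild-type tumour and under the floor at 2.75 in the HLF-deficient one, and the repressor Ahrr was under the floor on both arrays. Under the other scalings Nqo1 lay between -0.14 and -0.13, within that SD.

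Cyp1a2 is a gene of perivenous hepatocytes, those near the central vein. All 9 listed perivenous markers were positive, as deposited and after centring, quantile or loess scaling, with a median of 0.60. As deposited, 58.2% of all compared genes were positive. Higher by 2-fold were 2 of them, Glul at 1.42 and Lgr5 at 1.39, where 1.5% of all compared genes were. Cyp2e1, which activates DEN, differed by 0.51. The summed level of this list was 11.7 in the wild-type tumour and 12.4 in the HLF-deficient tumour on a log2 scale. Periportal markers had a median of -0.05 over 6 genes, or 0.07 with the arrays centred, with Arg1 lowest at -0.43 and Pck1 highest at 0.94. What part of the Cyp1a2 difference goes with the perivenous genes was not tested. Cyp3a11, also enriched near the central vein, differed by -0.15.

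Family 3 had values of both signs. Of its 6 genes, 5 were compared and 4 of these were negative, beside 6059 of all 14575 compared genes. Of the 4, Cyp3a44 alone was past 1.5-fold with both arrays above the floor, and Cyp3a13 was past 1.5-fold upwards. The abundant drug-metabolising enzymes were close to level. Cyp3a11 (probe set 10535704), the main mouse counterpart of human CYP3A4, was 10.9 in the wild-type tumour and 10.8 in the HLF-deficient one, which is a difference of -0.15. Cyp3a25 was 9.83 and 9.68, again -0.15. Both lie within the technical SD of 0.24, and between the deposited values and the other scalings they ranged from -0.03 with the arrays centred to -0.25 for Cyp3a11 after quantile normalization.

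Cyp3a44 (probe set 10535698), a female-predominant enzyme of mouse liver, was 6.45 in the wild-type tumour and 5.63 in the HLF-deficient tumour. The difference of -0.83, or 1.78-fold lower, ranked 110th from the bottom among 14575 genes. It lay at -0.998 after quantile normalization, just short of the 2-fold rule, at -0.99 after loess and at -0.71 with the arrays centred. The probe set that names Cyp3a41b, Cyp3a44 and Cyp3a41a together read 8.38 and 7.62, a difference of -0.76. Another, which names these 3 and Cyp3a11, read 8.24 and 7.42, a difference of -0.82. The 3 probe sets share target genes, so they are not separate evidence, but each gave a lower value in the HLF-deficient tumour.

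Cyp3a16 (probe set 10535659), expressed in fetal and in female mouse liver, had the lowest measured difference of all members, though its rank is not established. It was 3.26 in the wild-type tumour, little above the floor, and 1.11 in the HLF-deficient tumour, well below it. The measured difference of -2.15 is thus a difference against background. Taken from the floor, the bound is at least 1.21-fold lower. Upstream of its start it is nearly a copy of Cyp3a44, as the aligned sequences show.

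Cyp3a13, a family member of liver and intestine, was the exception in direction. It was 5.36 and 6.12, a difference of 0.76 or 1.70-fold higher, and between 0.59 and 0.88 under the other scalings. In the RefSeq order it lies on chromosome 5 outside the main Cyp3a cluster. Cyp3a57 was under the floor on both arrays at 2.78 and 2.84. The probe set naming Cyp3a59, Cyp3a57 and Cyp3a25 read 8.71 and 8.38, a difference of -0.33.

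**Figure D2:**
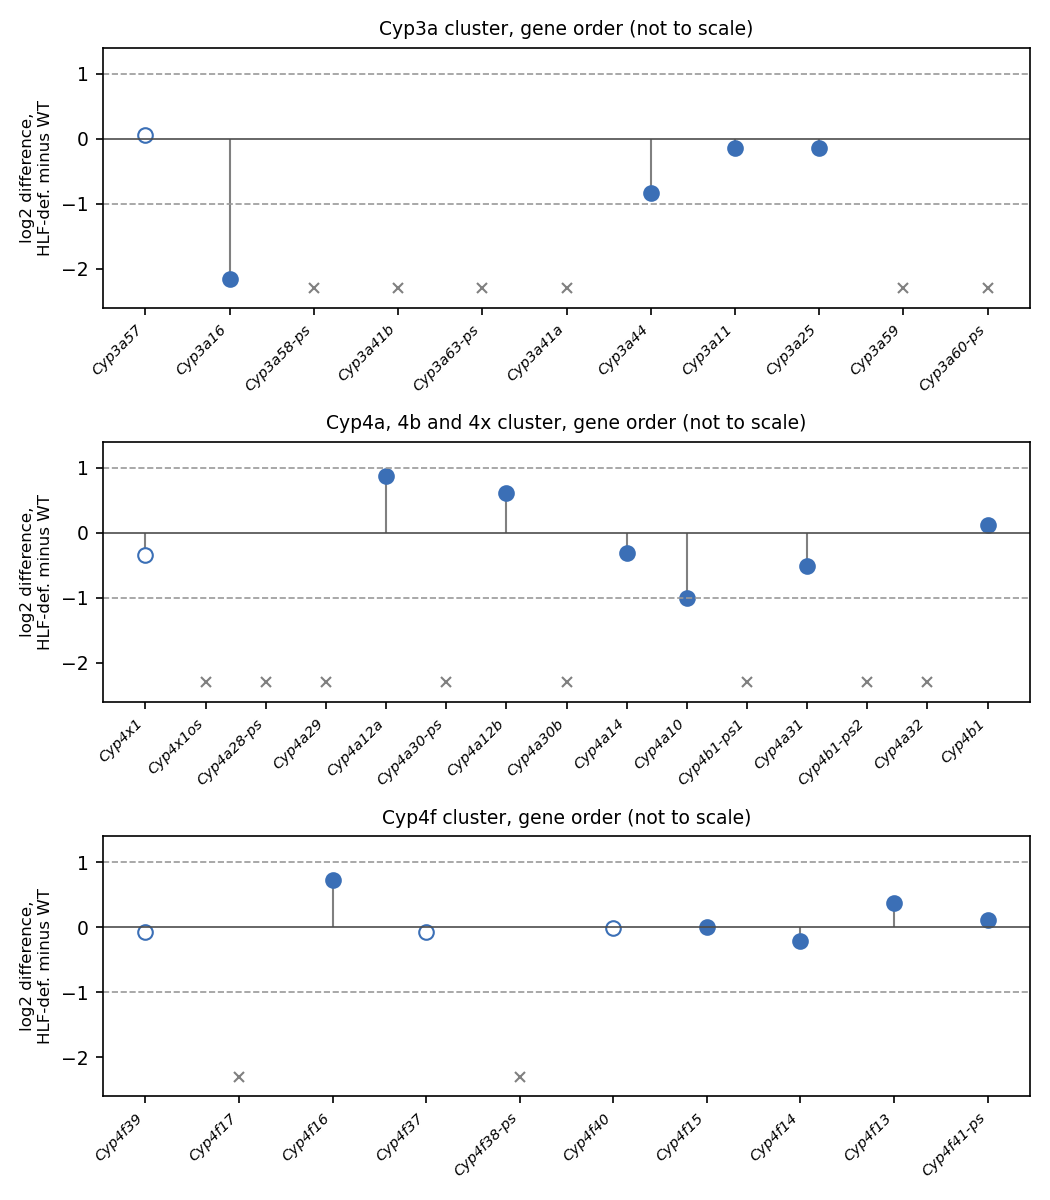
Log2 difference (HLF-deficient minus wild-type, vertical axis, 1 array each) of genes in RefSeq order along the Cyp3a, Cyp4a/4b/4x and Cyp4f clusters, spaced evenly and not to scale; filled points are genes expressed on at least 1 array, open points are under it on both, crosses at the bottom are genes with no single-gene probe set used here and have no value, and dashed lines mark 2-fold. Within the Cyp4a cluster Cyp4a12a and Cyp4a12b lie above 0 and Cyp4a14, Cyp4a10 and Cyp4a31 below it; the Cyp3a16 point is measured under the floor in the HLF-deficient tumour.

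The receptors for this family stayed within 1.5-fold. Nr1i2, which encodes PXR, was 6.01 and 6.36, a difference of 0.35, and Nr1i3, which encodes CAR, was 6.34 and 6.14, a difference of -0.20. Of the 10 genes in the list of these receptors and their partners, 0 passed 2-fold in either direction, and the median was 0.27. The highest was Nr0b2, a repressor that binds nuclear receptors, at 0.54. The list's median was 0.39 after centring and 0.11 after either quantile or loess normalization.

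Regulators of sex-biased liver genes are given beside Cyp3a44 and Cyp3a16, and beside the male-predominant Cyp4a12 genes described next. Of 8 listed, 7 were compared. Bcl6, a repressor that in male liver represses female-biased genes, was 3.32 in the wild-type tumour and 5.26 in the HLF-deficient tumour, or 3.83-fold higher, and between 1.97 and 2.06 in log2 difference under the other scalings. Cux2, a female-biased factor, differed by -0.68, from 4.69 to 4.004. Stat5b, which transmits growth hormone signals, differed by 0.61 and its receptor gene Ghr by 0.14. Y-linked Eif2s3y was expressed in both tumours at 6.52 and 6.49, Uty, also Y-linked, differed by 0.56, and Xist was under the floor in both at 1.64 and 1.68. Whether any of these values bears on the Cyp3a and Cyp4a12 genes was not tested.

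Within family 4, the Cyp4a genes had differences of both signs. Cyp4a12a (probe set 10507143), a male-predominant arachidonic acid hydroxylase, was 7.55 in the wild-type tumour and 8.43 in the HLF-deficient one, which is a difference of 0.88 or 1.84-fold higher. Its near copy Cyp4a12b was 7.40 and 8.02, a difference of 0.62 or 1.54-fold higher. Cyp4a12a was just past 2-fold at 1.002 with the arrays centred, and 0.76 and 0.74 after quantile and loess normalization. The 2 genes are similar in sequence, and their probe sets may read each other's transcripts.

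Of the PPARalpha-responsive Cyp4a genes, Cyp4a10 alone reached 2-fold, as deposited and after quantile normalization. Cyp4a10 (probe set 10507163), a fatty acid hydroxylase and a standard readout of that receptor, was 5.07 and 4.07, and its difference of -1.001, or 2.001-fold lower, ranked 52nd from the bottom of 14575 genes. It was -1.01 after quantile normalization, and missed the rule at -0.99 after loess and at -0.88 with the arrays centred. Cyp4a31 was 4.92 and 4.41, a difference of -0.52, and Cyp4a14 was 3.78 and 3.47, a difference of -0.31; neither passed 1.5-fold, and Cyp4a14 was -0.18 and -0.17 after quantile and loess normalization, within the technical SD. All 3 were negative and both Cyp4a12 genes positive under the deposited, centred, quantile and loess scalings.

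A probe set shared by Cyp4a32, Cyp4a31 and Cyp4a10 did not go with these values. It read 6.11 in wild-type tissue and 6.39 in HLF-deficient tissue, a difference of 0.29 that remained positive at 0.09 after quantile and 0.12 after loess normalization. Cyp4a10 and Cyp4a31 had single-gene probe sets that were negative, so the deposited data give opposite signs for overlapping targets. Which transcript it reads was not tested.

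**Figure D3:**
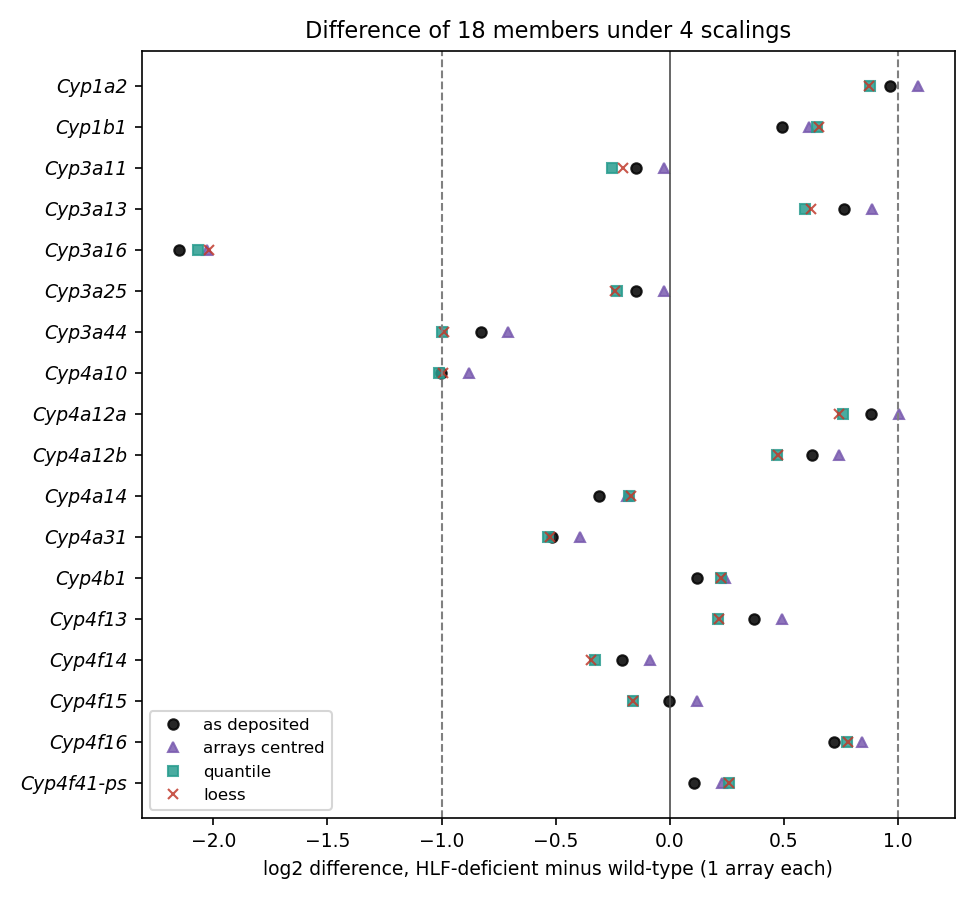
Log2 difference (HLF-deficient minus wild-type, horizontal axis, 1 array each) of the 18 members expressed on at least 1 array, as deposited (circles), with each array centred on its median (triangles), after quantile normalization (squares) and after loess normalization (crosses); dashed lines mark 2-fold. Cyp1a2 and Cyp4a12a pass 2-fold only with the arrays centred, and Cyp4a10 lies at the boundary.

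The other listed genes of the PPARalpha pathway went both ways. Of 20 genes listed with the receptor, 18 were compared, and 0 were higher or lower by 2-fold. Their median was 0.22 as deposited, 0.34 after centring and 0.06 after either quantile or loess normalization. As deposited 12 of 18 were positive, beside 58.2% of all compared genes. After centring, quantile and loess normalization 15, 10 and 9 were positive, beside 10305, 7711 and 7930 of the 14575 compared genes. Ppara was 7.60 and 7.91, a difference of 0.30. Pdk4, a kinase that spares glucose, was highest at 0.85, and Ehhadh, a peroxisomal beta-oxidation enzyme, was lowest at -0.43. Fabp1, the liver fatty acid carrier, differed by -0.41, and Acot1 and Cidec by 0.30 and 0.29; these 3 were picked with their values known.

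The Cyp4f genes hydroxylate leukotrienes and long-chain fatty acids. Of 9, 5 were compared. As deposited, 3 of these lay within the technical SD of 0.24, beside 49.5% of all compared genes. Cyp4f14, a leukotriene B4 hydroxylase of liver, was 8.23 and 8.02, a difference of -0.21. It was -0.33 after quantile and -0.35 after loess normalization, beyond that SD. Cyp4f15 was 7.29 on both arrays, with a difference of -0.0017 that became 0.12 with the arrays centred; quantile and loess normalization each gave -0.16. Cyp4f13 was 7.32 and 7.69, a difference of 0.37. Cyp4f16 differed most, from 3.88 to 4.60, which is 0.72 or 1.65-fold higher, and was between 0.78 and 0.84 under the other scalings. The pseudogene Cyp4f41-ps was near the floor at 3.31 and 3.42, a difference of 0.11 that was 0.26 after either quantile or loess normalization.

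Below the floor on both arrays were Cyp4f18, a leukotriene hydroxylase of neutrophils, at 2.84 and 2.93, Cyp4f37 at 1.90 and 1.82, Cyp4f39, an enzyme of skin lipid synthesis, at 2.54 and 2.48, and Cyp4f40 at 2.57 and 2.55. Neutrophil markers are given beside Cyp4f18. Of 10 listed, 8 reached the floor on at least 1 array, and 7 of these were negative (6 under the other scalings). As deposited, 6059 of all 14575 compared genes were negative. S100a9 at 5.12 and 4.60, and S100a8, Camp, Csf3r and Retnlg, were above the floor on both arrays, with Retnlg positive at 0.23. Ngp, a granule protein, was 3.26 in the wild-type tumour and under the floor at 1.95 in the HLF-deficient one. Ly6g and Cxcr2 were under the floor in both tumours. The list's summed level was 6.90 and 6.55 on a log2 scale. Their part in the Cyp4f18 level was not tested.

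Eicosanoid enzymes, which make or break down the mediators that Cyp4f enzymes act on, had a median of -0.12 over 10 compared genes, with 0 beyond 2-fold. Alox5, the lipoxygenase that starts leukotriene synthesis, was lowest at -0.79, while its activator Alox5ap was highest at 0.51. Lta4h, which makes leukotriene B4, differed by 0.26 and was picked with its value known. The median was 0.00 with the arrays centred and -0.02 and -0.03 after quantile and loess normalization.

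Of the remaining family 4 genes, Cyp4b1, known from lung and kidney, was 3.87 and 3.99, a difference of 0.12. Cyp4x1, known from brain, was under the floor on both arrays at 2.50 and 2.16. Cyp4v3, a fatty acid hydroxylase, was covered only by a probe set that it shares with Klkb1, the gene of plasma prekallikrein, which is no P450 and is made by hepatocytes. That probe set read 8.85 and 9.26, a difference of 0.41.

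**Figure D4:**
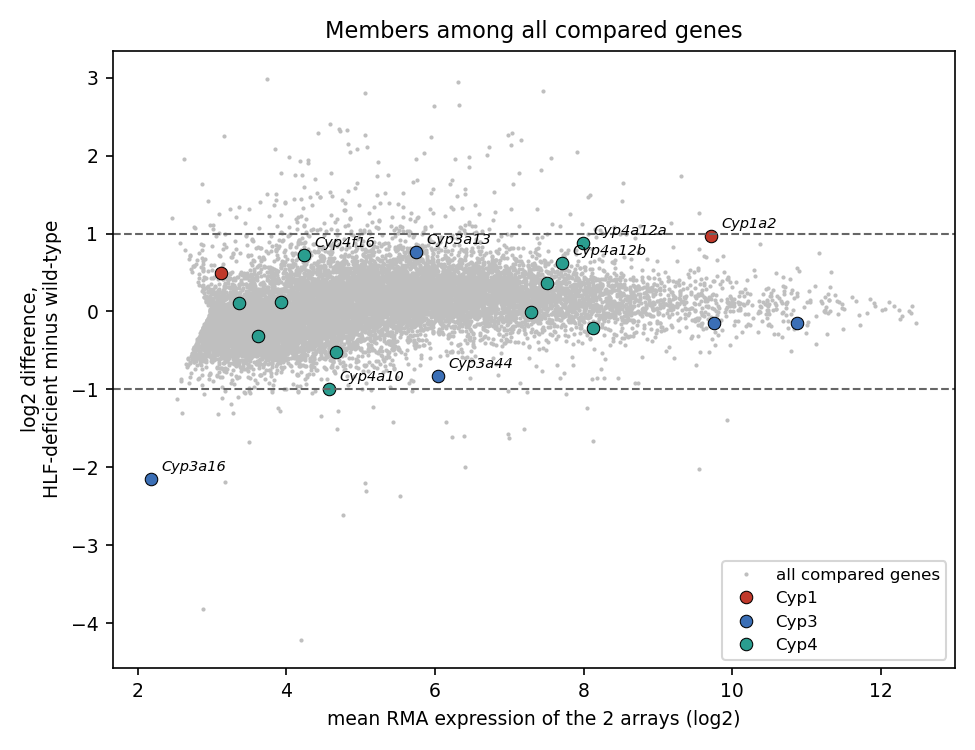
Log2 difference (HLF-deficient minus wild-type, vertical axis) against the mean RMA expression of the 2 arrays (log2, horizontal axis) for the 14575 compared genes (grey) and the 18 members among them (coloured by family, black rims); dashed lines mark 2-fold. Cyp1a2 and Cyp4a12a lie just under the upper dashed line, Cyp4a10 lies on the lower one, and Cyp3a16 lies at the far left because its HLF-deficient value is under the floor.

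Genes flanking the clusters were compared to see whether differences reached beyond the P450 genes. Around each of the Cyp3a, Cyp4a/4b/4x and Cyp4f clusters, which lie on chromosomes 5, 4 and 17, the 10 nearest compared genes that are not P450s were taken, 5 on each side. Beyond 2-fold there were 0 of 10 at each cluster. Of all compared genes 1.5% were higher and 0.364% lower by 2-fold, so 0 of 10 is the usual case. Their medians were 0.10, -0.04 and -0.07, and their values ran from -0.44 to 0.45, from -0.76 to 0.22 and from -0.51 to 0.37.

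D-box letters were looked for because HLF binds such elements. The forms TTATGTAA and TTACGTAA were searched on both strands in the same windows of 250 bases, which RefSeq's table gives for 18 of the 25 genes, 12 of them compared. The 0 matches among these 18 genes stand beside 0.931% of all 32851 windows with either form, so a window with no match is the usual case. Cyp4a10, Cyp4a12a, Cyp4a12b, Cyp4a14 and Cyp4a31 had no entry in that table.

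P450 enzymes of these families share electron donors and a supply of heme. Of 6 listed donor genes, 5 were compared with 0 beyond 2-fold; the main donor of microsomal P450s, Por, was not analysed here. The 5 ran from Cyb5b at -0.12 to Cyb5r3, cytochrome b5 reductase, at 0.15. As deposited 2 of the 5 were above 0, beside 58.2% of all compared genes. All 5 were above 0 after centring, and 1 under each of the quantile and loess scalings. Among 11 genes of heme synthesis and breakdown, 1 was higher and 0 were lower by 2-fold, and the median was 0.18. Alas1, the rate-limiting enzyme of heme synthesis, was 7.85 and 7.79, a difference of -0.06 that was 0.07 with the arrays centred, and the lowest was Cpox, a later enzyme of the pathway, at -0.26. Hmox1, the heme oxygenase that degrades heme, was 5.70 and 7.03, or 2.51-fold higher. Dbp, another PAR bZIP factor, differed by 0.33, and Tef by 0.06, which was -0.05 and -0.04 after quantile and loess normalization. Over all 9 pathway lists, 73 genes were compared. Of these, 3 were higher by 2-fold, Tiparp, Hmox1 and Bcl6, and 1 was lower, Hlf itself. Over all compared genes, 1.5% were higher and 0.364% lower by 2-fold. The counts of single lists stand beside these same shares.

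**Figure D5:**
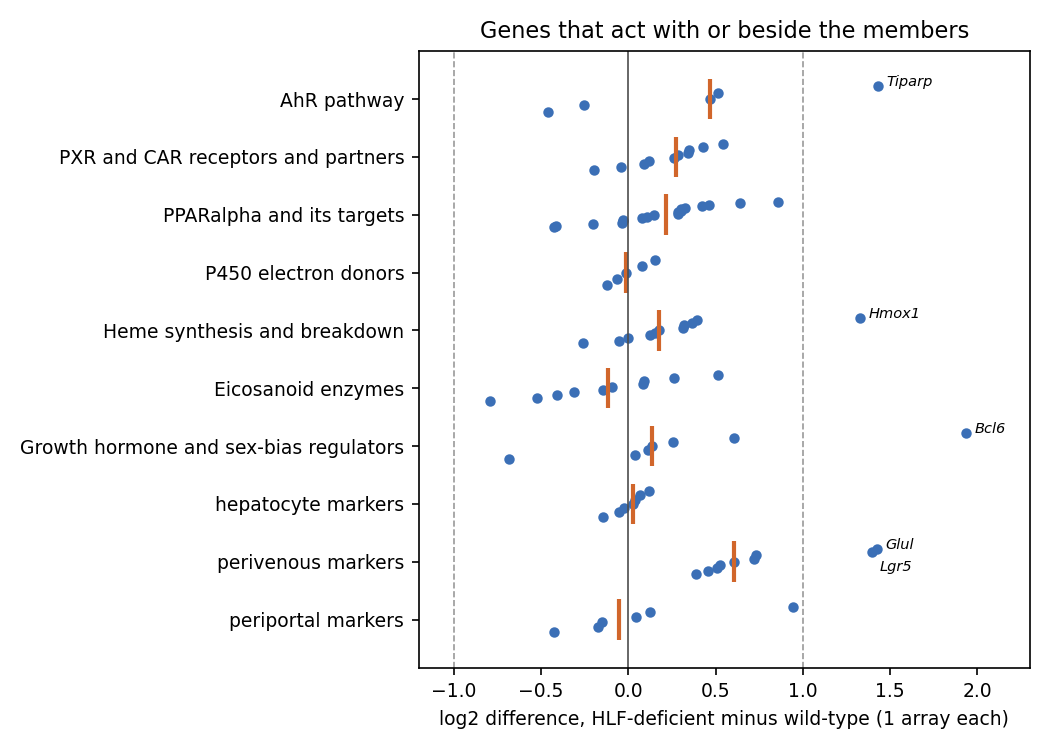
Log2 difference (HLF-deficient minus wild-type, horizontal axis, 1 array each) of genes expressed on at least 1 array in 10 lists that relate to the members; each point is a gene, orange bars are list medians, and dashed lines mark 2-fold. The electron donors and hepatocyte markers lie close to 0, all perivenous markers lie above it, and the labelled genes are those past 2-fold.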

How the data were processed

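Total RNA from wild-type and HLF-deficient tumour tissue, 1 sample each, was extracted with Trizol and labelled with an Affymetrix whole-transcript kit, per the labels' protocols. The deposited values are log2 expression made with RMA in Affymetrix Expression Console, per the submitters' processing notes; no version is named there. Its log2 scale was read from the values, 0.25 to 12.7. RMA corrects background and summarises probes, which compresses differences near background.

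Of 35556 probe sets, 21789 name 1 gene in the platform annotation, 1621 several and 12146 none. Symbols were looked up in RefSeq's GRCm38.p6 table by gene identifier: 21698 were found and 0 changed. For a gene with several probe sets the brightest was used. The floor came from 1250 chemoreceptor probe sets on both arrays. The members, lists and tests were chosen with earlier results of these data known; promoter identity and flanking genes were added after the values were seen. All members are named; other genes are named from the lists if beyond 2-fold, a known regulator, or the highest or lowest of a pathway list; of marker lists, the highest and lowest are named only in part. Genes named otherwise are Xist, Lta4h, Fabp1, Acot1, Cidec, Nqo1, Aldh3a1, Ahrr, Arnt, Stat5b, Ghr, Cux2, Ly6g, Cxcr2, S100a8, S100a9, Camp, Csf3r, Cd5l, Cyp2e1 and the Y-linked genes, chosen with their values known. Alternatives were centring, quantile, loess (span 0.4), probe set means, other floors and other fold rules. A protein comparison planned at the start was not run, and Por was not analysed here. Python 3.11.15, pandas 2.3.3 and statsmodels 0.14.6 were used, and the fold rule and scalings were tested on simulated data.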

Additional observations from a re-analysis of the deposited data

How the results depend on the processing

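With the arrays centred on their medians, 2 members were higher (Cyp1a2 at 1.09, Cyp4a12a at 1.002) and 1 was lower by 2-fold, since centring adds 0.12 to every difference; the median over all genes then rose from 0.07 to 0.20. The number lower was 1 also after loess normalization (Cyp4a10 at -0.99), with the floor at percentile 99, which leaves out Cyp3a16, with values under the floor set to it (Cyp3a16 at -0.28), and under a 4-fold rule. The number higher was 5 under a 1.5-fold rule. In the other settings run (quantile normalization, probe set means, a floor at percentile 90 and no floor), 0 were higher and 2 lower by 2-fold. The median of the members lay between -0.02 without a floor and 0.22 after loess normalization, where Cyp4f18 enters as the 19th gene; over the same 18 genes it was 0.17 after centring and 0.03 after either quantile or loess normalization. Of the 18 members, Cyp4f15 alone changed sign, with the arrays centred. No paired analysis was possible because each genotype has 1 array. Signal near background limits Cyp3a16, Cyp1b1 and Cyp4f41-ps, and 7 members have no level above it.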
